A study of Bos indicus with 55 samples.

Results

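The miR-26 family was followed in extracellular vesicles (EVs, small membrane particles released by cells) from cattle conceptuses, that is, embryos with their developing membranes. Its members were taken by name as the 3 entries miR-26a, miR-26b and miR-26c (bta-miR-26a, bta-miR-26b and bta-miR-26c) of the 1024 bovine miRNA entries in the EV table, of which 655 had a count and 240 passed the low-count filter. All 3 members passed. Each conceptus was recovered on day 16 of pregnancy and kept in culture medium for 6 h, and the small RNA of the EVs it released was sequenced. There were 12 libraries from nuclear transfer conceptuses (7 male, 5 female), 10 from in vitro fertilisation (IVF) conceptuses (3 male, 7 female) and 6 from in vivo conceptuses after artificial insemination (3 male, 3 female). In nuclear transfer the nucleus of a donor cell replaces that of an egg. Donor cells are not named in the labels, so the sex of a nuclear transfer conceptus and its donor cell cannot be told apart. They give the animals as Bos indicus, while the design text describes the conceptuses as Bos taurus taurus. Each library carries a different animal number.

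A mature miRNA is a short RNA, loaded into an Argonaute protein, that pairs with messenger RNAs through its seed near the 5′ end and lowers their output. In mammals miR-26a and miR-26b share their seed, and in human their genes lie within introns of the CTDSP genes, which encode small phosphatases. A studied target of the family in mammals is EZH2, a Polycomb histone methyltransferase. The family is abundant in many differentiated tissues.

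Read counts showed that the 3 entries carried 2 distinct series of counts. miR-26a had exactly 2 times the count of miR-26c in 22 of the 28 libraries, 1 read more than that in 4, 2 reads more in 1 and 3 reads more in 1. Over all libraries miR-26a held 162721 counts and miR-26c 81356, so miR-26a exceeded 2 times miR-26c by 9 reads in all. A ratio this fixed is what 2 entries give when they count the same reads, and miR-26c is not read below as a separate miRNA. The sources used here do not say how reads that match several places were counted, so the number of sequenced molecules behind miR-26a may be its own count or a fraction of it. miR-26b kept no fixed ratio to miR-26a, with 9113 counts and from 3.29 to 91.5 miR-26a counts per miR-26b count. A search of the 127 tested entries with a median count of at least 20, for whole ratios up to 6 held within 3 reads in every library, found 5 pairs. The pair of miR-26a and miR-26c was the 1 at a ratio of 2, the other 4 being at a ratio of 1, and 0 pairs held miR-26b. Such a search finds only ratios that stay fixed, so whether some reads count toward both miR-26a and miR-26b was not tested.

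**Figure D1:**
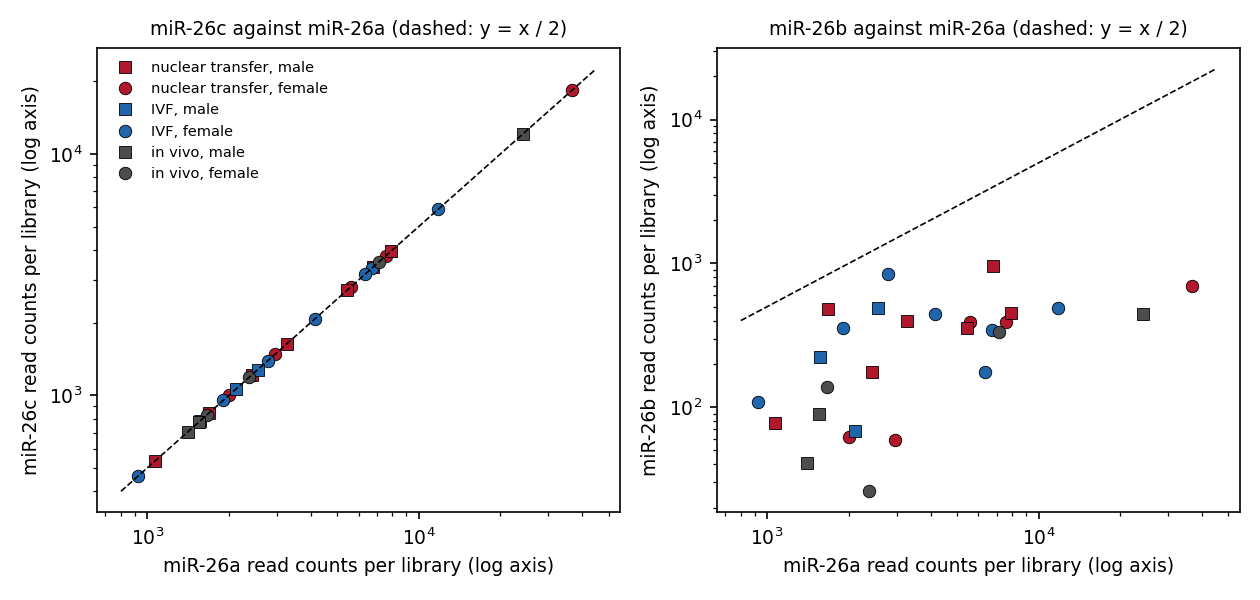
Read counts of miR-26c (left) and miR-26b (right) against those of miR-26a, on log axes, 1 point per EV library, coloured by conceptus type with squares for male and circles for female. The dashed line marks y = x / 2: miR-26c lies on it within 3 reads in all 28 libraries, while miR-26b lies below it and scatters.

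miR-26a was among the most abundant entries in every EV library. It ranked from 4 to 9 by count, with a median rank of 6, and took from 0.764% of the counts in IVF female replicate 4 (95% Wilson interval 0.716 to 0.814%) to 7.18% in nuclear transfer female replicate 4 (7.02 to 7.33%). miR-26b took from 0.0529% in in vivo female replicate 3 (0.0361 to 0.0775%) to 0.555% in nuclear transfer male replicate 6 (0.521 to 0.591%), and ranked from 19 to 90 with a median of 43.5. The table holds reads and not counts of molecular identifiers, so these intervals cover counting error alone. Ranks and percents are over all entries, with both entries of each of the 5 fixed-ratio pairs counted. One such pair, miR-148a and miR-148d, held 353036 counts each over all libraries, more than miR-26a. The lowest counts were 928 for miR-26a and 26 for miR-26b, so miR-26b in in vivo female replicate 3 was the least precise member value. Within groups the SD of log2 CPM (the count as a rate per library size, TMM-scaled to even out library composition) was 0.68 for miR-26a and 1.00 for miR-26b. Of the 30 tested miRNAs closest to miR-26a in mean CPM, 23 had a larger within-group SD, and 19 of the 30 closest to miR-26b did. In EVs, fewer vesicles with a miRNA and fewer copies in each vesicle cannot be told apart.

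miR-26a levels overlapped between the 3 conceptus types, and no test separated them. It averaged 37620 ± 19451 CPM in nuclear transfer EVs (SD, n = 12; lowest 15005, median 38608, highest 74411). In IVF EVs it averaged 29927 ± 12304 CPM (n = 10; lowest 15548, median 27717, highest 47085), and in in vivo EVs 34550 ± 19880 CPM (n = 6; lowest 18797, median 25073, highest 66797). The ranges overlapped broadly: 2 of the 12 nuclear transfer libraries lay above the highest in vivo library and 3 below the lowest. From high to low the means ran nuclear transfer, in vivo and IVF. miR-26c averaged 18809 ± 9725 CPM in nuclear transfer, 14963 ± 6152 in IVF and 17273 ± 9938 in in vivo EVs, as its shared reads require.

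miR-26b, in contrast, had its lowest mean in in vivo EVs. It averaged 2552 ± 1551 CPM in nuclear transfer EVs (SD, n = 12; lowest 765, median 2436, highest 5269) and 2935 ± 1663 CPM in IVF EVs (n = 10; lowest 990, median 2557, highest 5646). In in vivo EVs it averaged 1225 ± 737 CPM (n = 6), with 1146, 692 and 1231 CPM in the males and 1572, 2420 and 288 CPM in the females. Of the nuclear transfer libraries 6 of 12 lay above the highest in vivo library, as did 5 of the 10 IVF libraries, and 2 of the 6 in vivo libraries lay below all libraries of either other type.

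**Figure D2:**
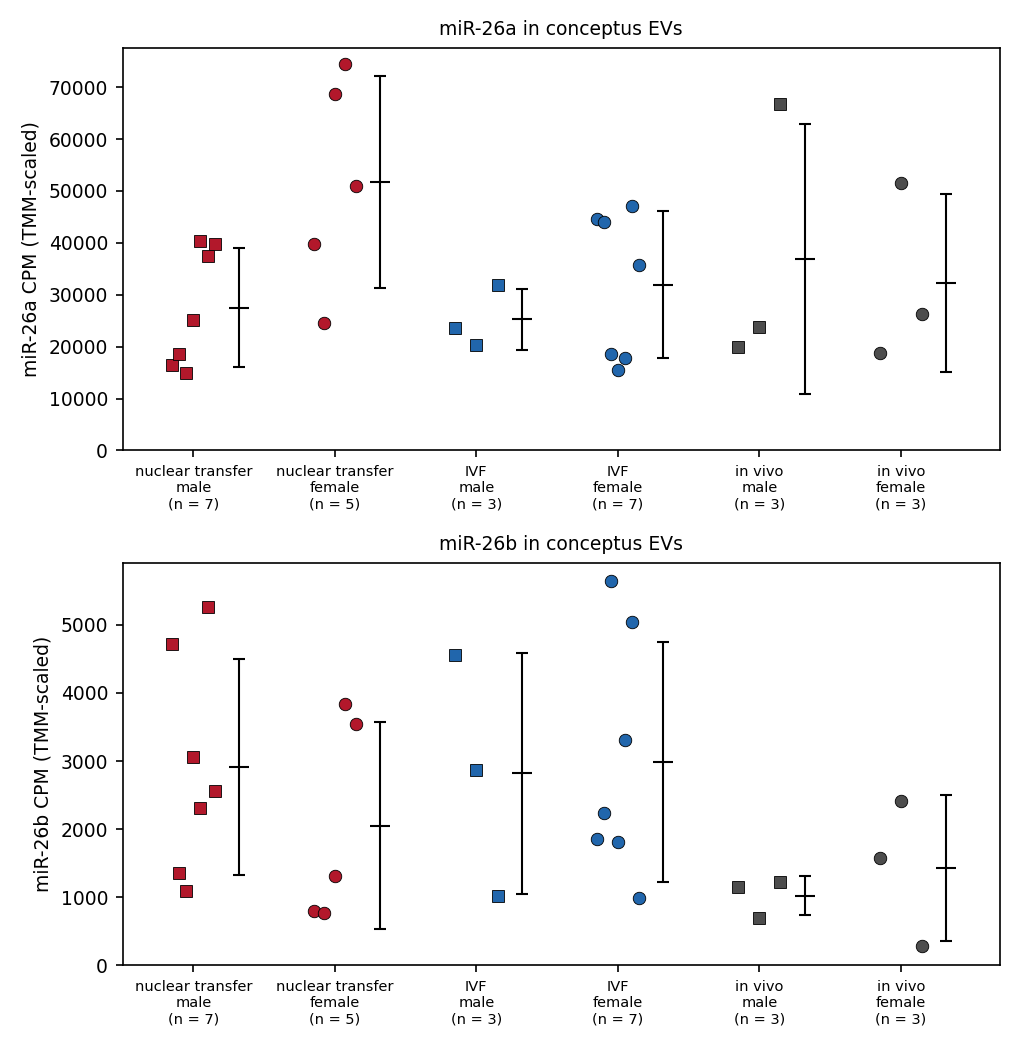
TMM-scaled CPM of miR-26a (top) and miR-26b (bottom) in each EV library by conceptus type and sex. Points are libraries, the dash beside them is the group mean and the bar ± 1 SD; miR-26a ranges overlap between all types, and the 6 in vivo libraries reach no higher than 2420 CPM for miR-26b.

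Against in vivo EVs, none of the members passed the test in nuclear transfer EVs, where edgeR called 1 of the 240 miRNAs tested (0.417%). miR-26b differed by 1.01 on the log2 scale (SE 0.50, 95% interval -0.01 to 2.04), and the adjusted p was 0.392 by edgeR. miR-26a differed by 0.13 (SE 0.36, interval -0.60 to 0.86, adjusted p = 0.854 by edgeR), and this difference was below 0 when the counts were scaled by library totals alone (-0.17). The median difference of all 240 miRNAs was 0.15, with 133 of them positive, and it was -0.18 with library totals alone. Of 3 other abundant conserved families, the let-7 family had 1 of 9 members with a positive difference (median -0.27), the miR-30 family 6 of 6 (median 0.53) and the miR-148 and miR-152 family 3 of 5 (median 0.43), each with 0 members past the threshold. In that last family miR-148d repeats the values of miR-148a and miR-148c those of miR-152, so its 5 entries carry 3 measurements, 2 of them positive. With library totals alone these counts were 1 of 9, 5 of 6 and 3 of 5, and with the share of miR-2887 and miR-2904 as a covariate 5 of 9, 6 of 6 and 3 of 5.

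IVF EVs gave the larger miR-26b difference from in vivo EVs, 1.26 on the log2 scale (SE 0.53, interval 0.18 to 2.34). Its unadjusted p was 0.0236 and its adjusted p 0.229 by edgeR, so it did not pass the threshold of 0.05 over all miRNAs. edgeR called 0 of the 240 (0%) here, with 39 at an unadjusted p under 0.05, DESeq2 called 13 and limma voom 22. DESeq2 put miR-26b past the threshold, at 1.45 with an adjusted p of 0.0492, and over all alternatives its adjusted p ran from 0.0492 to 0.734. miR-26a differed by -0.28 (SE 0.38, interval -1.05 to 0.49, adjusted p = 0.771 by edgeR). The 2 comparisons with in vivo EVs share those 6 libraries. Some marker lists moved with them: the 4 white blood cell markers were positive in both (4 of 4, median 1.62 for nuclear transfer and 1.06 for IVF), and the 5 tested embryonic markers were positive in 4 of 5 (median 0.73) and 5 of 5 (median 2.52), with 0 called in each. The 2 tested red blood cell markers (medians 0.71 and 0.95) and the liver marker miR-122 (0.60 and 0.38) were positive in both comparisons, also with 0 called. Muscle markers were positive in 2 of 3 and 0 of 3, and epithelial markers in 2 of 5 and 0 of 5. Over all 240 tested miRNAs, 133 were positive for nuclear transfer (median 0.15) and 124 for IVF (median 0.0076). White blood cell markers took 0 to 0.674% of the counts in nuclear transfer, 0.00165 to 0.416% in IVF and 0.00150 to 0.388% in in vivo EVs, and embryonic markers 0.0124 to 0.544%, 0.00242 to 1.04% and 0.0130 to 0.189% in the same order. Their part in the miR-26b difference was not tested.

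Between nuclear transfer and IVF EVs, where edgeR called 3 of the 240 (1.25%), 0 members passed. miR-26a differed by 0.41 (SE 0.32, interval -0.25 to 1.08, adjusted p = 0.684 by edgeR) and miR-26b by -0.25 (SE 0.43, interval -1.12 to 0.63, adjusted p = 0.892 by edgeR). These intervals leave room for a difference of more than 1 log2 unit in miR-26a upward and in miR-26b downward.

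Within a library, the ratio of miR-26b to miR-26a needs no scaling between libraries. Its log2 value averaged -3.98 ± 1.13 in nuclear transfer EVs (SD, n = 12; lowest -5.71, median -3.90, highest -1.81). It averaged -3.47 ± 1.202 in IVF EVs (n = 10; lowest -5.17, median -3.16, highest -1.72) and -4.91 ± 1.09 in in vivo EVs (n = 6; lowest -6.49, median -4.75, highest -3.58). Thus in vivo EVs held the least miR-26b per miR-26a read, with a median of 14.9 miR-26a counts per miR-26b count in nuclear transfer, 8.97 in IVF and 27.8 in in vivo EVs. The IVF libraries exceeded in vivo by 1.44, and 8 of 10 lay above the in vivo median (two-sided exact permutation p = 0.0330, Benjamini-Hochberg adjusted p = 0.0989 over the 3 pairs of types). Nuclear transfer exceeded in vivo by 0.93, with 9 of 12 above the in vivo median (exact p = 0.116, adjusted p = 0.174), and differed from IVF by -0.51 (permutation p = 0.310, adjusted p = 0.310). None of the 3 differences passed after adjustment. Among female libraries alone nuclear transfer differed from in vivo by -0.07, and among male libraries alone by 1.66 (exact p = 0.0333, adjusted p = 0.10).

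**Figure D3:**
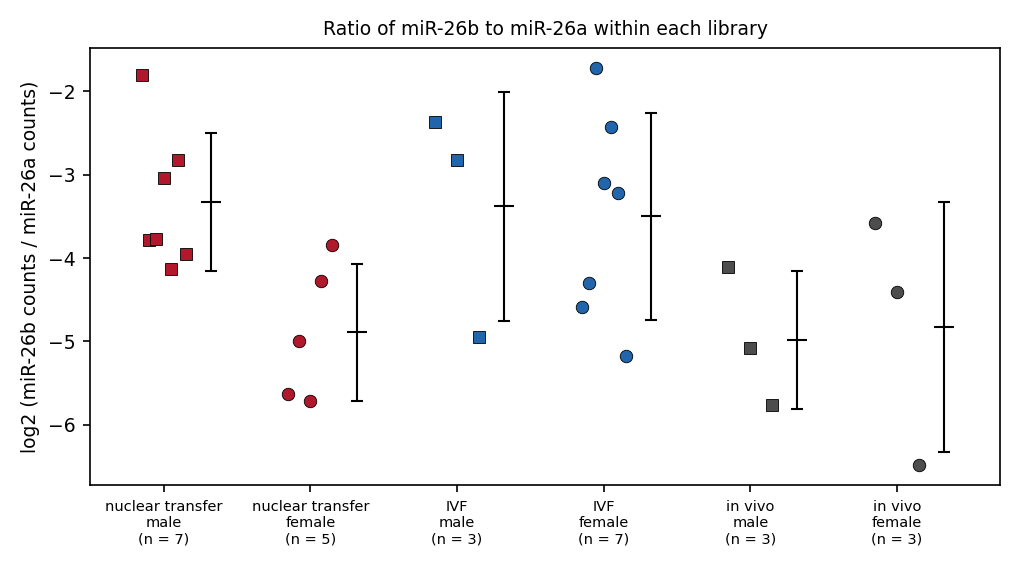
Log2 ratio of miR-26b to miR-26a counts in each EV library by conceptus type and sex; points are libraries, the dash is the group mean and the bar ± 1 SD. All 7 nuclear transfer males lie above the nuclear transfer female median of -5.00.

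By sex of the conceptus, the 2 members had differences of opposite sign within nuclear transfer EVs, neither past the test. miR-26a averaged 27546 ± 11375 CPM in males (SD, n = 7; lowest 15005, median 25148, highest 40355), against 51724 ± 20497 CPM in females, whose 5 values were 39793, 24658, 68762, 74411 and 50996. 3 of the males lay below the lowest female and 3 of the females above the highest male. miR-26b averaged 2909 ± 1585 CPM in males (lowest 1094, median 2566, highest 5269), against 2053 ± 1520 CPM in females, at 795, 765, 1312, 3845 and 3547. The log2 difference, male minus female, was -0.91 for miR-26a (SE 0.41, unadjusted p = 0.0353, adjusted p = 0.132 by edgeR) and 0.50 for miR-26b (SE 0.56, adjusted p = 0.562 by edgeR). Neither passed, where edgeR called 20 of 240 miRNAs (8.33%). The number called was 3 with miR-26c left out. Scaling by RLE size factors moved the median of all miRNAs from -0.03 to 0.36 and the miR-26a difference to -0.57.

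The ratio of miR-26b to miR-26a differed between male and female nuclear transfer EVs, where sex and donor cell cannot be told apart. It averaged -3.33 ± 0.82 on the log2 scale in males (n = 7; lowest -4.13, median -3.77, highest -1.81) and -4.89 ± 0.82 in females, whose values were -5.63, -5.00, -5.71, -4.27 and -3.84. The difference was 1.56, or 2.96-fold more miR-26b per miR-26a in males, with 7 of 7 males above the female median and 5 of 7 above the highest female (two-sided exact permutation p = 0.00758, adjusted p = 0.0227 over the 3 types). This test was added after the edgeR values were seen. With female replicate 1, 2, 3 or 4 left out the adjusted p was 0.0545, and over all single omissions the difference stayed between 1.31 and 1.83. Without libraries under 100000 counts the difference was 1.66 and the adjusted p 0.111 by exact permutation. Only female replicates 3 and 4 then remained against the 7 males. The exact p before adjustment, 0.0556, was the smallest that this split allows, so the threshold could not be passed. miR-2887 and miR-2904, abundant entries that overlap other small RNA classes, moved with the ratio: they took 30.3 to 59.4% of the counts in males (median 44.6%), against 5.17 to 44.5% in females (median 24.4%). With that share as a covariate in edgeR the miR-26a difference was -0.34 and the miR-26b difference 0.23. The 5 tested embryonic markers, 4 of them of the miR-302 family, were positive in 5 of 5 (median 3.07, 0 called) in this comparison. The 5 epithelial markers were negative in 5 of 5 (median -0.96, 1 called). The 3 tested muscle markers were positive in 3 of 3 (median 2.56, 0 called) and the liver marker miR-122 was at 1.90, not called. Over all 240 tested miRNAs 118 were positive and 122 negative. The part of these entries in the ratio difference was not tested.

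The sex difference of the ratio did not pass in the other types, and whether it differs between types was not tested. In IVF EVs the log2 ratio was -2.37, -2.82 and -4.95 in the 3 males, and averaged -3.50 ± 1.24 in the 7 females (exact permutation p = 0.917, adjusted p = 1.00). In in vivo EVs it was -4.11, -5.08 and -5.76 in males and -3.58, -4.41 and -6.49 in females (exact permutation p = 1.00, in a design whose smallest p is 0.10). Over all 3 types miR-26a differed by -0.35 between male and female conceptuses (SE 0.29, adjusted p = 0.744 by edgeR) and miR-26b by -0.02 (SE 0.39, adjusted p = 0.990 by edgeR), with 0 of 240 miRNAs called (0%), 9 at an unadjusted p under 0.05, and 0 by DESeq2 and limma voom. The type by sex interaction, with 0 of 240 called (0%), 35 at an unadjusted p under 0.05 and 0 by DESeq2 and limma voom, had an adjusted p of 0.641 for miR-26a and 0.868 for miR-26b by edgeR.

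Across all 28 libraries the ratio of miR-26b to miR-26a was higher where a larger share of counts was taken by miR-2887 and miR-2904. Pearson's r was 0.71 and Spearman's rho 0.78, each with a permutation p of 2e-05, the smallest these resamples can give, and an adjusted p of 0.00024 over 12 relations. Without the 2 libraries farthest from the median share r was 0.66. Within types r was 0.57 in nuclear transfer (n = 12, permutation p = 0.0483, adjusted p = 0.0828), 0.81 in IVF (n = 10, permutation p = 0.00978, adjusted p = 0.0235) and 0.62 in in vivo EVs (n = 6, exact permutation p = 0.239, adjusted p = 0.287), and rho was 0.64, 0.60 and 0.66. In nuclear transfer r was 0.39 without the 2 libraries farthest from the median share. The log2 CPM of miR-26a had an r of -0.69 with the share over all libraries (rho -0.67, adjusted permutation p = 0.00036 for each), -0.77 in nuclear transfer, -0.60 in IVF and -0.89 in in vivo EVs. For miR-26b the pooled r was 0.37 (rho 0.41, adjusted permutation p = 0.0900 and 0.0632), with 0.05, 0.67 and -0.00 within the types in the same order. Each CPM and the share are taken over the same library total, with TMM scaling on the CPM alone, so they are not free of each other. The permutation p-values of the CPM relations do not allow for that. The share itself averaged 37.5 ± 16.7% in nuclear transfer, 45.3 ± 25.7% in IVF and 22.6 ± 12.5% in in vivo EVs, so it moved with conceptus type in the same direction as the ratio. With the share as a covariate in edgeR, all 3 members were positive against in vivo EVs for both nuclear transfer and IVF. None of them was called in these fits. No such fit was made for the ratio, so whether the share accounts for its type differences was not tested.

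**Figure D4:**
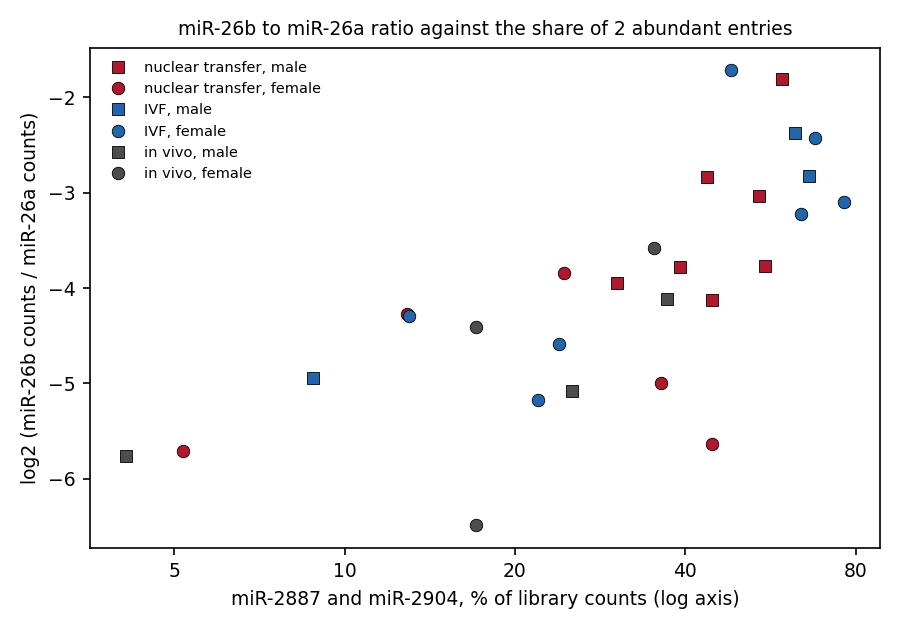
Log2 ratio of miR-26b to miR-26a counts against the percent of library counts held by miR-2887 and miR-2904 together, on a log axis, 1 point per EV library, coloured by type with squares for male and circles for female. The ratio is higher in libraries with a larger share (r = 0.71, n = 28).

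The 2 members showed little relation from library to library. The log2 CPM of miR-26a and miR-26b had a Pearson r of 0.07 over the 28 libraries (rho 0.04), -0.13 with RLE size factors and 0.18 with library totals alone. Within types r was 0.19 in nuclear transfer, -0.25 in IVF and 0.32 in in vivo EVs. Of the 237 other tested miRNAs, 47 had an r above 0.5 with miR-26a and 40 with miR-26b, and 3 did with both. All correlations here describe libraries that share depth, scaling and composition, and carry no test since the nearest miRNAs were chosen for their r.

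miR-26a was most like let-7f, let-7g, miR-200c, miR-30d and let-7d. The let-7 miRNAs accumulate as cells differentiate, and miR-200c is a miRNA of epithelia that represses the ZEB transcription factors. Pearson's r with miR-26a was 0.89 for let-7f (rho 0.92), 0.88 for let-7g (rho 0.89), 0.87 for miR-200c (rho 0.84), 0.84 for miR-30d (rho 0.77) and 0.83 for let-7d (rho 0.85). Without the 2 libraries farthest from the median of miR-26a these values were 0.77 to 0.85. With miR-26b the same 5 miRNAs had an r between -0.23 and 0.27. By list, the median r with miR-26a was 0.76 for the 9 let-7 members, 0.78 for the 6 miR-30 members and 0.80 for the 5 miR-200 family members fixed as epithelial markers, against a median of 0.02 over all 237.

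miR-26b was most like miR-148b, miR-17-5p, miR-20a, miR-16a and miR-103. miR-17-5p and miR-20a come from 1 cluster of miRNAs that promotes proliferation in mammals, and miR-16a belongs to a family that restrains cyclins. Pearson's r with miR-26b was 0.90 for miR-148b (rho 0.92), 0.84 for miR-17-5p (rho 0.87), 0.83 for miR-20a (rho 0.79), 0.82 for miR-16a (rho 0.85) and 0.82 for miR-103 (rho 0.84). Without the 2 libraries farthest from the median of miR-26b these were 0.79 to 0.90. With miR-26a the same 5 had an r between -0.21 and 0.44. Like miR-26b, for which they were chosen over these libraries, they had their lowest mean in in vivo EVs. miR-148b averaged 414 ± 244 CPM in nuclear transfer (SD, n = 12), 489 ± 277 in IVF (n = 10) and 214 ± 113 in in vivo EVs (n = 6). miR-17-5p averaged 312 ± 295, 374 ± 348 and 98.3 ± 89.8 CPM in the same order, with a lowest value of 0 CPM in in vivo EVs. Counts of miR-16a were near the floor, with a lowest value of 0 CPM in each type and a median of 12.1 CPM in in vivo EVs. None of the 5 passed the test against in vivo EVs, the log2 differences of miR-148b being 0.88 (SE 0.52, adjusted p = 0.434 by edgeR) for nuclear transfer and 1.17 (SE 0.55, adjusted p = 0.271 by edgeR) for IVF. The 4 white blood cell markers had a median r of 0.64 with miR-26b and 0.45 with miR-26a, and took at most 0.674% of the counts of a library. Their part in the miR-26b pattern was not tested.

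**Figure D5:**
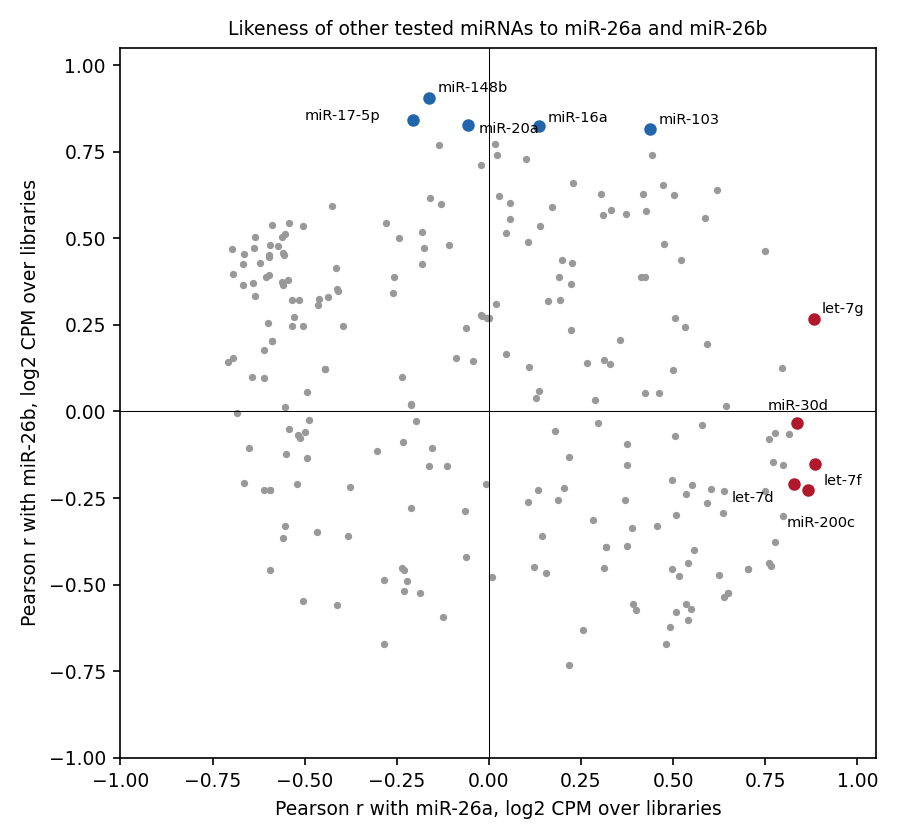
Pearson r of log2 CPM over the 28 EV libraries with miR-26a (x axis) and with miR-26b (y axis) for the 237 other tested miRNAs, 1 point each. Red points are the 5 with the highest r with miR-26a, blue the 5 with the highest r with miR-26b; 3 miRNAs exceed 0.5 on both axes.

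In the sex comparison within nuclear transfer EVs, the 5 miRNAs chosen for their r with miR-26a had negative differences, a direction that this choice over the same libraries largely fixes. In males miR-200c fell by 2.15 log2 units (SE 0.65) and miR-30d by 1.40 (SE 0.40), with edgeR adjusted p of 0.0382 and 0.0374, while let-7f was at -1.28 (SE 0.43, adjusted p = 0.0563 by edgeR) and miR-26a at -0.91. With library totals alone edgeR called 0 miRNAs in this comparison. With miR-26c left out it called 3, and whether miR-200c or miR-30d was among them is not given here. Of the let-7 family 9 of 9 members were negative and 3 were called, among them let-7a-5p at -2.02 (SE 0.62, adjusted p = 0.0436 by edgeR). Of the miR-30 family 6 of 6 were negative and 2 were called. Over all 240 miRNAs the median was -0.03, with 122 negative and 20 called by edgeR (8.33%), 13 of these lower in males. DESeq2 called 6 of the 9 let-7 and 2 of the 6 miR-30 members and limma voom 7 and 2, with every member negative in both. Over all 240 miRNAs DESeq2 called 59 and limma voom 46 in this comparison. The signs also held under RLE, upper quartile and library total scaling, under each of which 0 members were called in either family. With the share of miR-2887 and miR-2904 as a covariate the let-7 median was -0.76, against -1.53 without it, and the miR-30 median -0.42, against -1.12, again with 0 called. miR-148a, the most abundant of its family, was at 0.13 (SE 0.37, adjusted p = 0.825 by edgeR). Of the miRNAs chosen for their r with miR-26b, miR-148b was at 0.58 (SE 0.59, adjusted p = 0.513 by edgeR) and miR-17-5p at 1.37 (SE 0.84, adjusted p = 0.242 by edgeR). miR-103 was at -0.12 (SE 0.56, adjusted p = 0.896 by edgeR).

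Library totals ran from 69424 to 603579 counts in nuclear transfer, 41396 to 200856 in IVF and 39263 to 400928 in in vivo EVs. Marker miRNAs of epithelium and trophectoderm were present in every library, at 0.403 to 9.11% of the counts, and those of embryonic or pluripotent cells at 0.00242 to 1.04%. Red blood cell markers took 0.00331 to 0.532%, muscle markers 0.000994 to 1.78% and the liver marker miR-122 0.0165 to 2.41%, while the white blood cell markers were at 0 in at least 1 nuclear transfer library. Separate animal numbers stand for separate conceptuses, so the p-values measure the spread between conceptuses and their libraries together. Whether nuclear transfer conceptuses of 1 sex share a donor cell line is not given in the labels. Their p-values by sex may therefore not cover the spread between donors.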

How the data were processed

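The authors deposited whole read counts per miRNA entry for the 28 EV libraries, not normalized. Per the labels' protocols, vesicle RNA was ligated to adapters, reverse transcribed, amplified by PCR and selected for short inserts. The submitters' processing notes name ARS-UCD1.2 as the genome and list Bowtie, cutadapt, DESeq2, featureCounts and STAR. Their versions and roles, and how reads matching several entries were treated, are details not given in the sources used here; endometrium data were not analysed. All 28 sample columns were used, and totals of 39263 to 603579 counts per library limit the precision of miR-26b.

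The whole table was tested with edgeR 4.0.16 in R 4.3.3 (TMM, filterByExpr with minimum count 10 and minimum total 15, quasi-likelihood F test, two-sided, Benjamini-Hochberg over 240 miRNAs, threshold 0.05), in 1 fit of 6 groups of type by sex. A type difference is the mean of the male and female differences. Standard errors come from the fold and its F statistic. Log2 CPM used a prior count of 2. The ratio used a pseudocount of 0.5 and permutation tests in SciPy 1.17.1, exact where a group held under 10 libraries and with 100000 resamples otherwise. Both kinds of test were tried on simulated data. Alternatives were DESeq2 1.42.0, limma 3.58.1 (voom with quality weights), other scalings and filters, the 2 entries miR-2887 and miR-2904 left out or as a covariate, shallow or single libraries left out, and a replicate block.

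The members, comparison lists and markers were chosen with earlier results of these data known. The other miRNAs named are the 5 with the highest Pearson r with miR-26a and with miR-26b, and the most abundant member of each comparison family. miR-2887 and miR-2904 are named for their share. The rule also named entries that share a seed or sequence with a member, which were not looked for here.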

Additional observations from a re-analysis of the deposited data

How the results depend on the processing

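The miR-26b differences from in vivo EVs kept their direction in all 12 alternatives and all 28 fits with 1 library left out, from 0.46 to 1.14 and from 0.69 to 1.197 for nuclear transfer, and from 0.74 to 1.52 and from 0.94 to 1.54 for IVF. The IVF value passed the threshold with DESeq2 alone (1.45). The miR-26a difference between nuclear transfer and in vivo EVs, 0.13, has no stable direction: it was -0.17 with library totals alone, -0.00892 with the filter of 10 CPM in 3 libraries, -0.56 without libraries under 100000 counts, -0.025 with the replicate block and -0.029 without miR-26c, and from -0.17 to 0.40 with 1 library left out. The miR-26a difference between IVF and in vivo EVs was 0.24 with the share of miR-2887 and miR-2904 as a covariate, and from -0.53 to 0.039 with 1 library left out. miR-26c followed miR-26a throughout, and the cause of these changes was not tested.

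The miR-26b difference between sexes, -0.02, was 0.19 with DESeq2 and with RLE size factors, 0.10 with limma voom and without miR-26c, 0.16 with upper quartile scaling, 0.12 with no low-count filter, 0.025 with the filter of 10 CPM, 0.017 without miR-2887 and miR-2904, 0.13 without shallow libraries, 0.065 with the replicate block, and from -0.13 to 0.20 with 1 library left out.

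The ratio difference between nuclear transfer and in vivo EVs was -0.067 in females alone, and that between nuclear transfer and IVF EVs was 0.051 in males alone. With 1 library left out these 2 ran from 0.61 to 1.19 and from -0.71 to -0.32, and IVF minus in vivo from 1.12 to 1.71 (adjusted p from 0.0515 to 0.254 by exact permutation). The sex difference of the ratio in nuclear transfer EVs was 1.66 without shallow libraries and ran from 1.31 to 1.83 with 1 library left out. The threshold was passed in 24 of 28 fits, but the test uses the 12 nuclear transfer libraries alone, so omissions from other types repeat it. Among omissions of nuclear transfer libraries, those of female replicate 1, 2, 3 or 4 did not pass (adjusted p = 0.0545 by exact permutation). In IVF the sex difference of the ratio ran from -0.38 to 0.91, and in in vivo EVs from -0.99 to 0.46, with -1.35 (1 library each) without shallow libraries. A pseudocount of 1 changed no call of the ratio; miR-26c, or the sum of miR-26a and miR-26c, in place of miR-26a was tried between types alone, where no difference was called with it or without it.

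Counts of miRNAs called, over alternatives, ran from 0 to 6 for nuclear transfer against in vivo, 0 to 22 for IVF against in vivo, 0 to 5 for nuclear transfer against IVF and 0 to 59 for sex within nuclear transfer EVs, against 1, 0, 3 and 20. With 1 library left out the last ran from 0 to 36 and stayed within 1.5 times of 20 in 4 of 28 fits. The replicate numbers pair nothing: libraries of different groups with 1 number had a median correlation of deviations of 0.0074 over 53 pairs, against 0.0021 over 264 pairs of unlike numbers, 4 of 28 libraries correlated best with their own number, and the replicate block changed no member's call. Depth limits miR-26b most, at 26 counts in its lowest library.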
